A study of Homo sapiens with 2 samples.

Results

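MYBL2 is a MYB family transcription factor with roles in cell cycle gene expression, and its binding was described here at 10 genes of the heat shock response: HSPA1A, HSPA1B, HSPA8, HSPH1, HSP90AA1, HSP90AB1, HSPD1, HSPE1, DNAJB1 and HSF1. The genes were given by name, and their peaks were found by position alone. A peak belonged to a gene when it overlapped the gene body or lay at a promoter, taken as the bases up to 1000 bp from any annotated transcription start site (TSS) of the gene. The 10 genes are among 38690 protein-coding and lncRNA genes of the annotation, and they held 54 of the 66954 peaks. The cells were A673, an established Ewing sarcoma line that carries the EWSR1-FLI1 fusion, grown without a stated treatment. There was 1 MYBL2 ChIP library and 1 input library of the same line, so no value has a replicate error and no test between conditions was possible. The labels give the antibody as one against MYBL2, while the study's methods name the phosphorylated, activated form.

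Heat shock proteins are chaperones, which help other proteins to fold and keep damaged proteins from aggregating. Many of their genes are activated by heat shock factor 1 (HSF1), the main transcription factor of the heat shock response, which binds as a trimer to heat shock elements. Such an element is a row of alternating GAA and TTC units, each separated from the next by 2 bases. The family holds both stress-inducible members, such as HSPA1A, HSPA1B and DNAJB1, and constitutive members, such as HSPA8 and HSP90AB1. Cancer cells often depend on high chaperone levels.

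The promoters below carry heat shock elements close to a MYBL2 peak and show how the inducible genes are built. The sequences run 5′ to 3′ along the gene's strand, are read from the GRCh37 assembly (hg19 coordinates) and lie within the last 200 bases before the canonical TSS. Annotated untranslated bases were left off. Capitals mark matches to 3 alternating units of the heat shock element, on either strand, with at most 1 mismatch in the 9 fixed bases.
HSPA1A (chr6:31783120-31783319, plus strand): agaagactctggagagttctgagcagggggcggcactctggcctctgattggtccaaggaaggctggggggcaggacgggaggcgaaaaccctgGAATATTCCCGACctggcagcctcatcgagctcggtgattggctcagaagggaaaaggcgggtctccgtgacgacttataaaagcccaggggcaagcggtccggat
HSPA1B (chr6:31795315-31795514, plus strand): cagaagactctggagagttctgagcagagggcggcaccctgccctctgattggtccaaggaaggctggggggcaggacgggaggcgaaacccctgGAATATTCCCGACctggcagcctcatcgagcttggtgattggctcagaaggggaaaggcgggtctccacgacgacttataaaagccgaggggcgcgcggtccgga
HSP90AA1 (chr14:102553382-102553581, minus strand): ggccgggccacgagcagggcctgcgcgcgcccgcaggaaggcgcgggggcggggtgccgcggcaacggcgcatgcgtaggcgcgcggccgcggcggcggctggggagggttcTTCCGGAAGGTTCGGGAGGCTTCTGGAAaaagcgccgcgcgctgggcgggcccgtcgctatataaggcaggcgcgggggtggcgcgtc
DNAJB1 (chr19:14629220-14629409, minus strand): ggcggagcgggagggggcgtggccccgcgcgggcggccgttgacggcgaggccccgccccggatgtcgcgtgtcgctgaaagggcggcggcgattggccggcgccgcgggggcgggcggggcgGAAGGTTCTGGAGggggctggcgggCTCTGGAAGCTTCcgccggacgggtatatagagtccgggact
HSPH1, canonical start (chr13:31736065-31736231, minus strand): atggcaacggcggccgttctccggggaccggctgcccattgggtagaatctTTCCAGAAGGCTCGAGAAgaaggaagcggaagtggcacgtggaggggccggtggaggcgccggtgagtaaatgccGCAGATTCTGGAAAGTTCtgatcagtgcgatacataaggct

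All 10 genes had a MYBL2 peak at a promoter, against a background of 41.9% of all genes and 59.4% of protein-coding genes. The exact (Clopper-Pearson) interval of 10 of 10 is 69.2% to 100%. It treats the genes as independent draws, but they were given by name, and HSPD1 and HSPE1 share a promoter peak. The interval therefore does not serve as a comparison with the background. All 10 also had a promoter peak with a fold enrichment of at least 5, against 49.6% of protein-coding genes. Fold enrichment is the authors' ratio of fragments at the peak summit to the local background. With the gene body included, the background was 65.4%, and again all 10 genes had a peak. The strongest promoter peaks of the 10 genes had a median fold enrichment of 15.4, against 8.31 over the 16206 genes with a promoter peak. At the canonical TSS alone the medians were 13.3 for the 10 genes and 8.65 for protein-coding genes. The genes were named with earlier results of these data known, so these counts and medians describe the list and were not tested. Peak height can move with how open a promoter is. Accessibility was not analysed here, and its part was not tested.

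**Figure D1:**
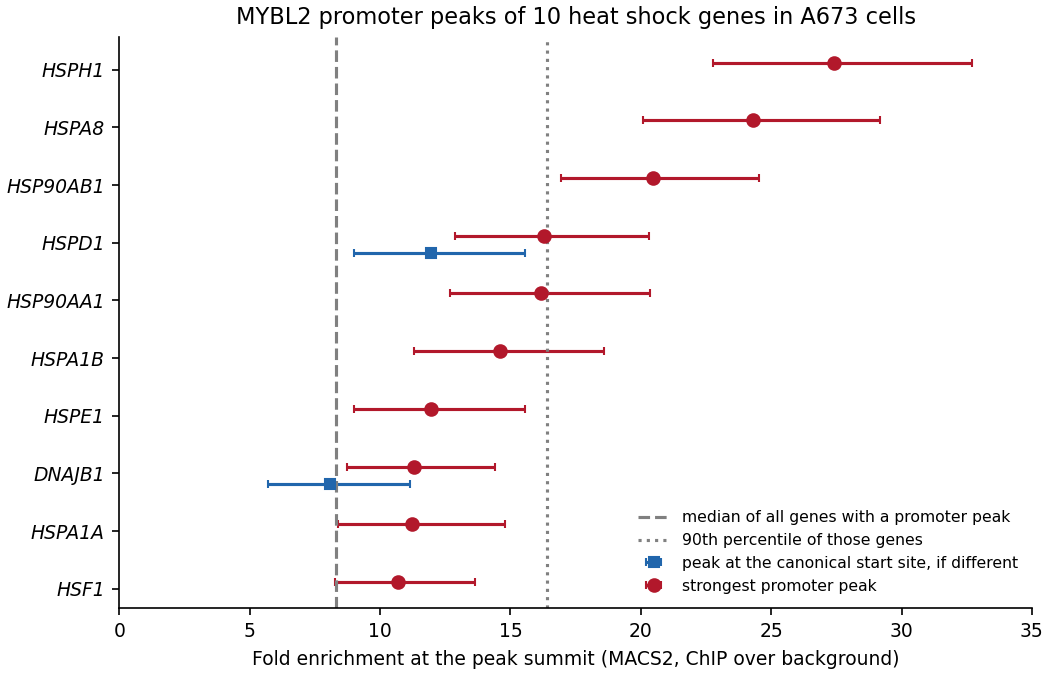
Fold enrichment (x axis) of the strongest promoter peak of each gene (circles) and of the peak at the canonical TSS where that is another peak (squares). Bars are 95% Poisson intervals of the fragment count, and the lines give the median (8.31) and the 90th percentile (16.4) over all genes with a promoter peak. HSPH1, HSPA8 and HSP90AB1 lie above the 90th percentile.

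The strongest promoter peak belonged to HSPH1, an HSP110 chaperone that also acts as a nucleotide exchange factor for HSP70. Its fold enrichment was 27.4, from 121 fragments at the summit, and 97.8% of the genes with a promoter peak had a weaker one. HSPA8, the constitutive HSP70 of the cytosol, followed with 24.3 and 114 fragments. HSP90AB1, the constitutive cytosolic HSP90, had 20.5 and 115 fragments. These 3 genes were in the top 10% of genes with a promoter peak. HSP90AA1, the inducible HSP90, had a fold enrichment of 16.2 and 71 fragments. HSPA1B and HSPA1A, both inducible HSP70 genes, had 14.6 (64 fragments) and 11.2 (49 fragments). HSPE1, which encodes the mitochondrial co-chaperonin HSP10, had 12.0 (53 fragments). HSF1 itself had the lowest fold enrichment, 10.7 with 63 fragments, with a weaker peak in 68.1% of genes with one. Its background was 4.99 fragments, against 3.52 for HSPE1 and 3.45 for HSPA1A. Ranked by −log10 q, HSF1 (74.4% weaker) stood above HSPE1 (71.2%) and HSPA1A (66.4%).

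Counting error separated only distant ranks, and without a replicate no part of the order is firm. In all 9 neighbouring pairs the 95% Poisson intervals of the fold enrichment overlapped. The interval of HSPH1 was 22.8 to 32.7, and the whole interval of 7 other genes lay below it. That of HSPA8 was 20.1 to 29.2, and that of HSF1 was 8.25 to 13.6. Only the interval of HSF1 included the median of all genes with a promoter peak. These intervals cover counting error alone.

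Not every strong peak sat at the canonical start, which is a choice of the annotation. Which start the cells used was not measured. For HSPD1, the mitochondrial chaperonin HSP60, the strongest promoter peak (16.3) lay 16154 bp upstream of the canonical TSS, near the start of an extended annotated transcript. Its summit was 72 bp from the canonical TSS of MOB4, a neighbouring gene on the other strand. At the canonical start of HSPD1 the fold enrichment was 12.0, with a summit 136 bp downstream. DNAJB1, the inducible HSP40 that brings clients to HSP70, had a similar arrangement. Its strongest peak (11.3) lay 11266 bp upstream, with the summit 69 bp from the canonical TSS of TECR. The peak at its own canonical start had a fold enrichment of 8.09 from 35 fragments, and 47.5% of genes with a peak at the canonical TSS had a weaker one. DNAJB1 was the 1 gene of the 10 below the all-gene median within 1000 bp of the canonical TSS. HSPH1 exceeded it there through its peak 541 bp upstream, while the HSPH1 peak over the canonical TSS itself had a fold enrichment of 5.17. HSP90AA1 had a second promoter peak of 5.50 at its outermost TSS, which lies 38 bp from a start of WDR20.

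Several promoters are shared with a neighbour, so that a single peak counted for both genes. HSPD1 and HSPE1 are transcribed in opposite directions, with their nearest starts 16 bp and their canonical starts 539 bp apart. One peak of 2048 bp (chr2:198363592-198365639) covered the region between them, and its summit lay 136 bp inside HSPD1 and 675 bp upstream of the canonical start of HSPE1. The peak is also that of HSPE1-MOB4, a read-through gene. HSPA1A shares its promoter peak with HSPA1L, an HSP70 gene on the opposite strand whose TSS is 260 bp away. HSPA1B and HSPA8 each share theirs with unnamed lncRNA genes. The data cannot assign such a peak to one of the genes.

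Peaks at the starts differed in width as well as in height. The HSPA1A peak (chr6:31783236-31783511) spanned 276 bp and the HSPA1B peak (chr6:31795416-31795714) 299 bp, with summits 49 and 45 bp downstream of the TSS in the 5′ untranslated region. In HSP90AA1 the peak (chr14:102552729-102554572) spanned 1844 bp and its summit lay 19 bp upstream. The peaks of HSPA8 (chr11:122930642-122934448) and HSP90AB1 (chr6:44213958-44217973) were far wider, at 3807 and 4016 bp. The median peak of the whole list spanned 319 bp. The HSPA1A and HSPA1B peaks end just before sequence repeated elsewhere, where reads cannot be placed uniquely. Whether this narrowed them was not tested. Over the 10 genes the median distance from summit to canonical TSS was 71 bp, against 103 bp for protein-coding genes.

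In HSPA8 and HSP90AB1 the peaks ran on through the gene. Peaks covered 87.0% of the annotated HSPA8 gene body and 75.8% of that of HSP90AB1, more than in 98.9% and 98.5% of protein-coding genes. The median coverage of a protein-coding gene was 0.880%. HSPE1 and HSPD1 followed with 35.9% and 28.5%. The annotated HSPD1 gene body runs over all of HSPE1, and the 3 peaks of HSPE1 are also peaks of HSPD1. Their coverages are therefore not separate results. The 19 peaks of HSPD1 included the strong ones at its promoters, and 16 of them had a fold enrichment under 5, down to 2.65. The other 6 genes had 2.92% (HSPH1) to 18.1% (HSPA1B). These shares depend on how far the annotated gene extends. Over the canonical transcript alone DNAJB1 had 29.0% in place of 5.78%, and HSP90AA1 14.7% in place of 4.65%. HSPH1 thus combined the highest promoter peak of the 10 with the lowest coverage of the gene body. Of the 54 peaks, the 28 at a promoter of the 10 genes had a median fold enrichment of 5.33, and the other 26 had 3.93.

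**Figure D2:**
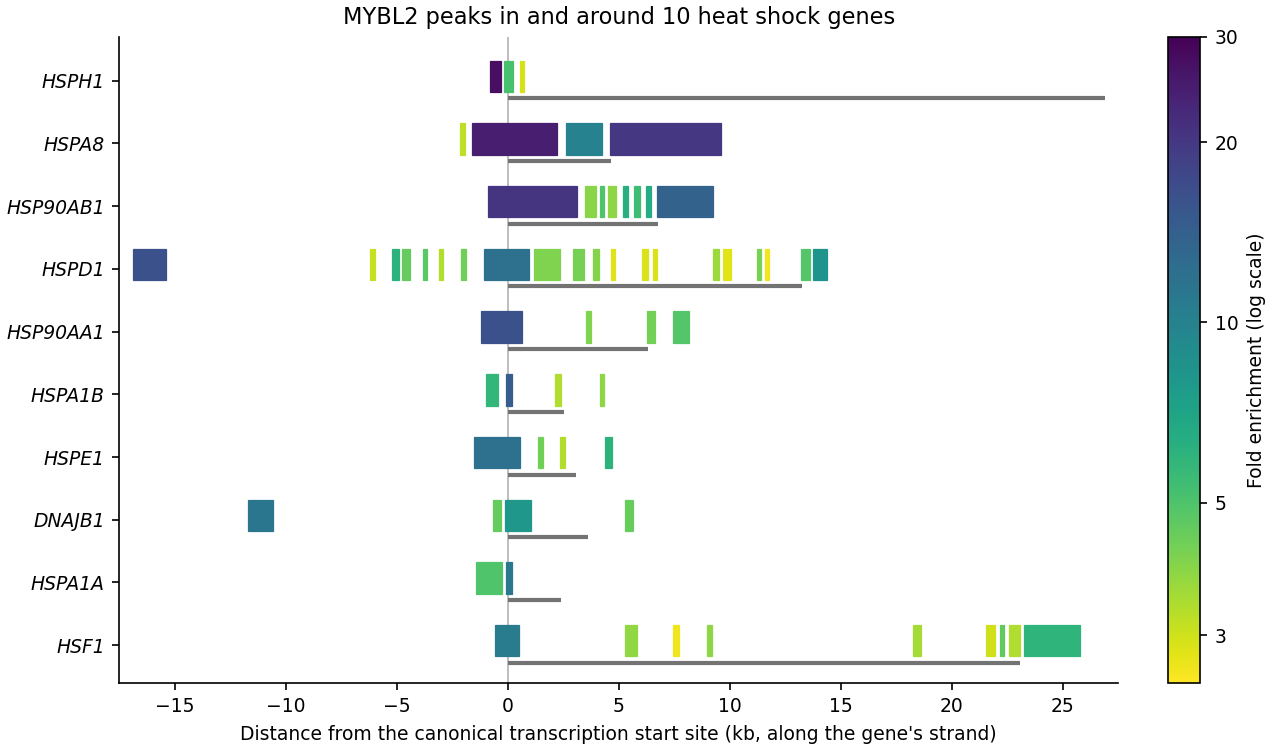
Peaks (coloured boxes) around the canonical TSS of each gene, by distance in kb along the gene's strand, with colour giving the fold enrichment on a log scale and the grey bar the canonical transcript. Peaks span most of HSPA8 and HSP90AB1, while HSPH1 has peaks only near its start. The peak at the outermost TSS of HSP90AA1, 52845 bp upstream, lies outside the axis.

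Inside these genes the peaks followed the introns more than the exons. Beyond 1000 bp from the canonical TSS, peaks covered 100% of the 1650 intronic bases of HSPA8 and 62.7% of the 1997 exonic bases. For HSP90AB1 the values were 88.7% and 41.5%, and for HSPD1 34.3% and 3.49%. HSF1 had the opposite order, with 8.83% of introns and 33.5% of exons covered. Exonic sequence was also repeated elsewhere in the genome more often than intronic sequence in HSPA8, HSP90AB1 and HSPD1. Stretches of 50 bases that occur elsewhere were centred on 20.2% of exonic and 0% of intronic bases in HSPA8, 17.5% and 1.63% in HSP90AB1, and 33.7% and 5.49% in HSPD1. In HSF1 the values were 0% and 6.37%. With stretches of 100 bases, the read length, the exonic and intronic shares were lower, at 4.06% and 0% in HSPA8, 1.71% and 0% in HSP90AB1, and 10.6% and 0.129% in HSPD1. Reads that could be placed in more than 1 position were filtered by the authors through a mapping quality minimum of 20. How far this filter set the gaps was not tested.

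A peak also lay within 3000 bp past the end of the canonical transcript in 8 of the 10 genes, against 23.2% of protein-coding genes. HSPA8 had the strongest, with a fold enrichment of 20.2 from 89 fragments. It spanned 5005 bp (chr11:122923242-122928246), and its summit lay 3037 bp past the transcript end, 4645 bp from the nearest annotated TSS. Of the protein-coding genes with an end peak, 95.8% had a weaker one. The end peak of HSP90AB1 had a fold enrichment of 13.9 from 61 fragments, spanned 2525 bp and reached the end of SLC35B2. HSPD1 had one of 8.31, with the summit 944 bp past the end. The values for HSPE1, HSF1, HSP90AA1, DNAJB1 and HSPA1B were 6.07, 5.97, 4.85, 4.44 and 3.82. The end peak of HSPE1 overlaps HSPD1 and HSPE1-MOB4 and is also counted among the peaks of HSPD1. That of HSF1 overlaps DGAT1, so an end peak need not belong to the gene that ends there. HSPA1A and HSPH1 had none. Transcription was not measured in these files, so its part in the signal over gene bodies and ends was not tested.

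HSPA1A and HSPA1B are neighbouring copies of one gene, and their coding sequences limit what can be mapped. In the assembly, 1919 of 1923 coding bases (99.8%) are identical. Stretches of 100 bases, the length of a read, that occur elsewhere made up 72.3% of those in HSPA1A and 68.9% of those in HSPA1B, against 0.0623% to 1.44% in the other 8 genes. The repeated stretches ran from 208 to 2072 bp after the TSS of HSPA1A and from 207 to 2071 bp after that of HSPA1B, with a break at a single base. No peak overlapped them in either gene. The promoter peaks ended just before, 191 and 199 bp after the TSS. Within those peaks 0% of the 100-base stretches were repeated, so within the primary assembly each promoter peak can be assigned to its own copy. Whether the authors aligned to alternate haplotypes of this region as well, which would lower the mapping quality of reads in both genes, is not given in the sources used here. Whether MYBL2 signal extends into the coding sequence cannot be told from uniquely placed reads.

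Upstream the copies soon differ. Identity was 88.9% over the first 200 bases of the transcript, 94.4% over the 250 bases before the TSS, and 65.5% over the 250 bases before that. Each gene had a second, weaker peak there, with fold enrichments of 4.94 for HSPA1A (27 fragments) and 5.83 for HSPA1B (32 fragments). HSPA1B had a further peak of 3.37 in its 3′ untranslated region, from 14 fragments, and HSPA1A had none. The intervals of the promoter peaks, 8.37 to 14.8 for HSPA1A and 11.3 to 18.6 for HSPA1B, overlapped.

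**Figure D3:**
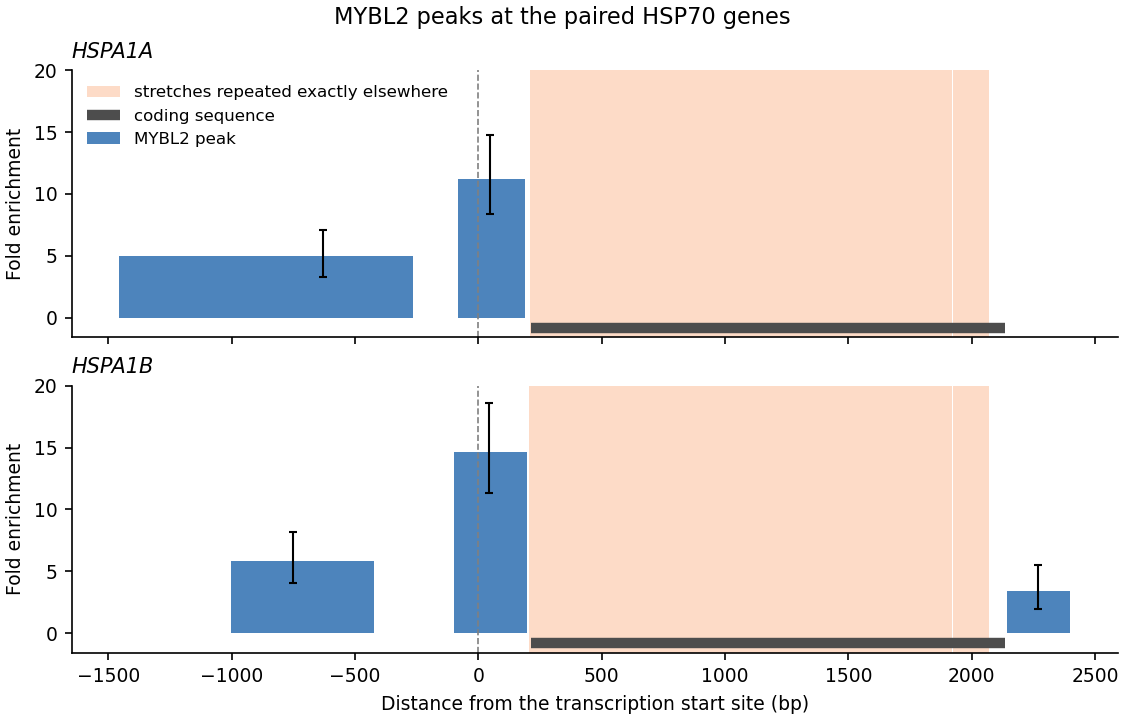
Fold enrichment of each peak (bars, y axis; width is the extent of the peak, error bars the 95% Poisson interval at the summit) by distance from the TSS of HSPA1A and HSPA1B in bp. The shaded stretches occur exactly elsewhere in the assembly and hold no peak, and the promoter peaks (11.2 and 14.6) end before them.

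Heat shock elements were present in several of these promoters. In the 250 bp before the canonical TSS, 3 alternating units without a mismatch were found in 4 of the 10 genes (HSP90AA1, HSPA8, HSPD1 and HSPH1), against 64 of 19819 protein-coding genes (0.323%). With 1 mismatch allowed, a setting chosen after the sequences were seen, HSPA1A, HSPA1B and DNAJB1 joined them, making 7, against 3.96%. In HSPA8 the elements gaaagttccagaa and ttctggaaggttc began 230 and 55 bases before the TSS. In HSPD1 2 overlapping matches, ttctggaaagttc and gaaagttctggaa, began 245 and 240 bases before it. They lie inside the peak that HSPD1 shares with HSPE1, but beyond the 250 bp before the canonical TSS of HSPE1, which was not counted. The copies in HSPA1A and HSPA1B carry the same letters, gaatattcccgac, 106 and 105 bases before the TSS. Elements are a known feature of this family, so their presence was no result of the ChIP.

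Within 50 bp of the summit of the strongest promoter peak, 0 of the 10 genes held a complete heat shock element, and 0.0915% of all 22943 promoter peaks did, so the count of 0 is not a result about these genes. The nearest was that of HSP90AA1, with its centre 63 bp from the summit. With 1 mismatch allowed, HSP90AA1 had a match centred 48 bp from the summit. In HSPA8 the distances were 142 and 317 bp. In the capitals shown above, the HSPH1 match without a mismatch was 488 bp from the summit of the strongest peak. It lay inside the weaker, separate peak at the canonical TSS. The HSF1 protein was not profiled, and nothing follows from these distances about its binding.

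**Figure D4:**
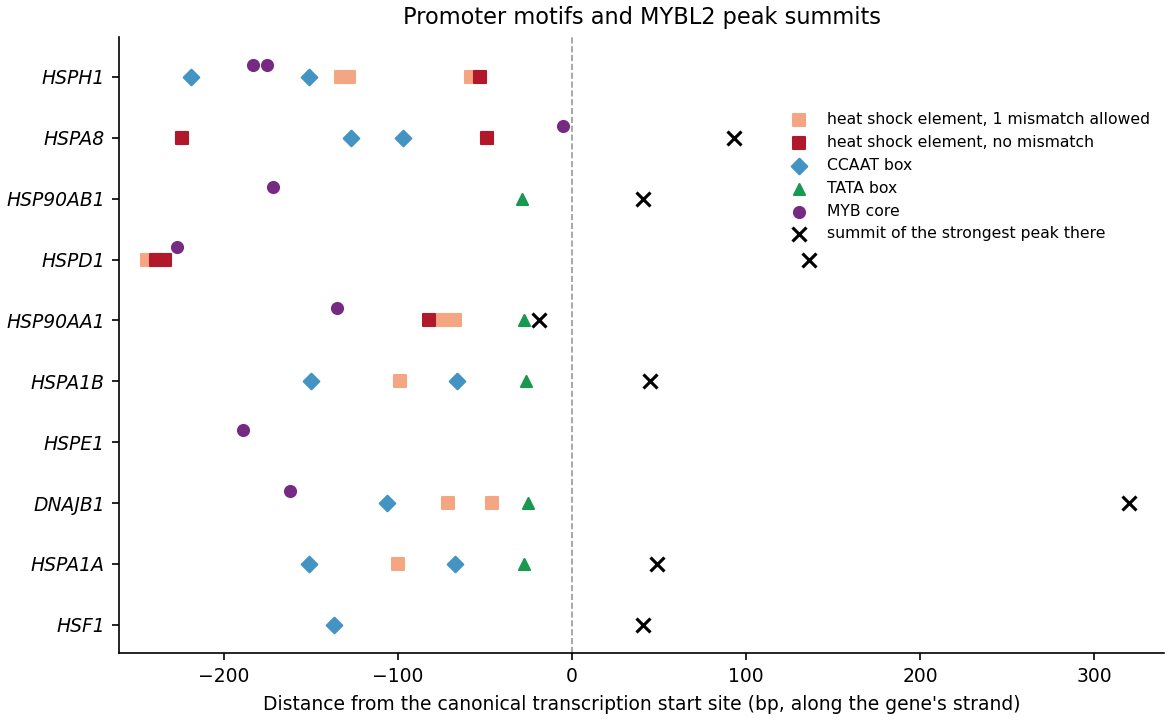
Positions of promoter motifs in the 250 bp before the canonical TSS and of the summit of the strongest peak at that TSS (crosses), in bp along the gene's strand. MYB cores are drawn slightly higher. Except that of HSP90AA1, 19 bp upstream, the summits within the axis lie after the TSS, and those of HSPH1 and HSPE1, 541 and 675 bp upstream, lie outside it.

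Other motifs varied between the genes. The MYB core (AACNG on either strand) lay within 50 bp of the summit in 7 of 10 genes, against 40.9% of all promoter peaks. Within 100 bp the count was again 7, against 64.0%, and in the 250 bp before the canonical TSS it was 7 against 67.4% of protein-coding genes, so at these wider windows the share was near the background. The GC box (GGGCGG), a site for SP factors, lay within 50 bp of the summit in 4 of 10 genes (18.6% of all promoter peaks). In the 250 bp before the canonical TSS all 10 had one, against 59.2% of protein-coding genes. The CCAAT box, a site for NF-Y, lay within 50 bp of the summit only in HSPA8 (10.4% of all promoter peaks). In the 250 bp before the canonical TSS 6 of the 10 genes had one, against 34.2% of protein-coding genes. These 6 were DNAJB1, HSF1, HSPA1A, HSPA1B, HSPA8 and HSPH1. Within 50 bp of the summit none of the 10 had the CHR element TTTGAA (5.90% of all). It is a motif of cell cycle promoters bound through the MuvB complex with which MYBL2 associates. None had the E2F site (1.14%), spelled TTTGGCGC, TTTCCCGC, TTTGCCGC or TTTCGCGC, or the ETS core CCGGAAGT (1.77%). At background shares this low, the absence of the CHR element, E2F site and ETS core is not a result about the 10 genes. The TATA box (TATAAA or TATATA) lay within 50 bp of the summit in HSP90AA1 alone (4.40% of all), but 5 of the 10 genes had one in the 250 bp before the canonical TSS, against 11.3% of protein-coding genes. These 5 were DNAJB1, HSP90AA1, HSP90AB1, HSPA1A and HSPA1B. With 10 genes, a difference of 1 gene moves such a share by 10 percentage points.

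The strongest peak of HSPH1 also lay away from the canonical start. It (chr13:31736351-31736851) spanned 501 bp, with a summit 541 bp upstream of the canonical TSS but 57 bp upstream of the outermost annotated TSS. At the canonical start there was a separate peak of only 5.17 from 22 fragments, and the heat shock elements shown above lay inside it. The sequence before the outermost start is shown because the peak there was the highest of the 10 genes. Capitals mark a match to ACTAC, 3 bases of any kind, and TCCCA, an element known to be bound by ZNF143 and THAP11. It was searched after this promoter had been read.
HSPH1, outermost start (chr13:31736526-31736675, minus strand): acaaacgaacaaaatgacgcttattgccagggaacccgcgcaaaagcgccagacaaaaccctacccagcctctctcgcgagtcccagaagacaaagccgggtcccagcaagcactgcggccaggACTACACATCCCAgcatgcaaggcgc

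The match was centred 37 bp from the summit, and the peak held 2 such matches. The other 9 genes had none within 50 bp of the summit of their strongest peak. Of all promoter peaks 1.03% had the element there, and of the strongest 10% of them 4.35%.

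Across the wider chaperone network, 88 of 110 further genes (80%) had a promoter peak, against 59.4% of protein-coding genes. Their median fold enrichment was 10.8, against 8.67 over the protein-coding genes with a peak. Each of the 11 chaperonin genes, HSPD1 and HSPE1 included, had one, with a median of 15.7. The highest were CCT8 (30.0) and CCT4 (20.2), which encode subunits of the cytosolic TRiC complex. All 4 HSP90 genes had one, including HSP90B1 of the endoplasmic reticulum (18.2) and TRAP1 of the mitochondria (11.7). The HSP70 and HSP110 family had 14 of 16 with a median of 12.0, led outside the 10 genes by HSPA4 (25.4) and HSPA5 (17.97). HSPA6, a strictly inducible HSP70, and HSPA12B had no promoter peak. Among co-chaperones 26 of 27 had one, all but UNC45B, and AHSA1, an activator of HSP90 (29.4), and BAG5, a cofactor of HSP70 (24.7), were highest.

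Of the matched HSP40 genes, 37 of 44 had a promoter peak, with a median of 9.09, the highest being DNAJB4 (23.1) and DNAJC27 (22.6). The 7 without included DNAJA4, DNAJB13, DNAJB7, DNAJB8, DNAJC15 and DNAJC5B. Of the small heat shock proteins, which hold unfolded clients without using ATP, 3 of 10 had a peak, with HSPB6 (12.6) and HSPB1 (11.0) highest. CRYAA, CRYAB, HSPB2, HSPB7, HSPB8 and HSPB9 were among the 7 without. Beside HSF1, the HSF family had peaks at HSF2 (6.70) and HSF4 (5.65), both below the median of all genes with a promoter peak, and none at HSF5 or HSFX1 to HSFX4. The families were not tested against each other.

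**Figure D5:**
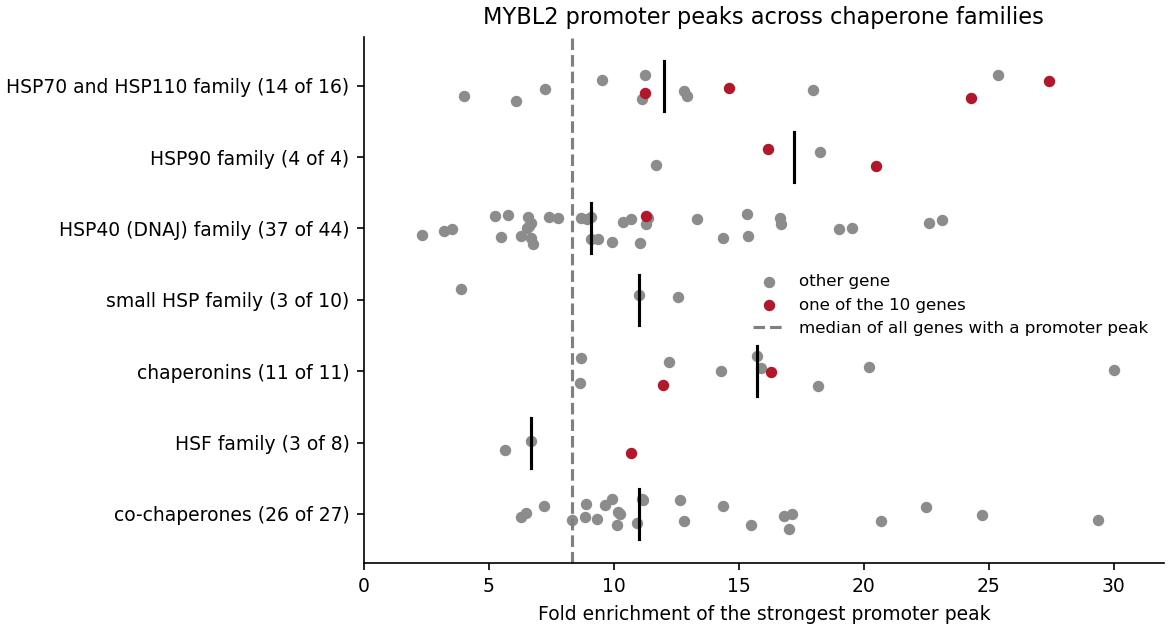
Fold enrichment of the strongest promoter peak (x axis) for each gene with a peak, by chaperone family, with the 10 genes in red, other genes in grey and the family median as a black line. Numbers beside each family give genes with a peak of those matched. The HSF family has the lowest median (6.70) and the HSP90 family the highest (17.2).

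The HSF1 promoter peak (chr8:145514722-145515813) spanned 1092 bp, with its summit 41 bp downstream of the canonical TSS in the 5′ untranslated region. BOP1, a ribosome biogenesis gene on the opposite strand with a start 191 bp away, shares it. HSF1 held 7 further, weaker peaks, of 2.65 to 4.60, and a peak of 5.97 past its end that overlapped DGAT1 and lay 908 bp from a start of that gene. By fold enrichment the promoter peak of HSF1 was below the strongest of each of the other 9 genes, though not by −log10 q, and its interval overlapped with all of theirs except those of HSPH1, HSPA8 and HSP90AB1.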

How the data were processed

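MYBL2 ChIP and input DNA of A673 cells, 1 library each, were sequenced by the authors. Reads were aligned to hg19 with Bowtie2 and filtered at a mapping quality of 20, and narrow peaks were called with MACS2 at a q of 0.05 with the input as control. The submitters' processing notes give versions 2.1.10 and 2.0.10. Samples were grouped by their labels. The deposited list gives for each peak a fold enrichment (a linear ratio), −log10 p, −log10 q and a score made by the authors' caller. The deposited score was not used further. The list has 66954 peaks on 23 chromosomes, with a median fold enrichment of 3.79 (1.54 to 64.9).

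MACS2 computes fold enrichment and p from the fragment pileup and the background. A whole-number pileup that solves both was recovered for 66954 peaks. On the −log10 p scale the misfit was at most 3.49e-05. The median was 20 fragments (11 to 293). The background floor of 3.45 fragments corresponds to about 56800000 ChIP reads, taking the smallest peak width, 164 bp, as the fragment length. Exact 95% intervals (Poisson for fragments, Clopper-Pearson for shares) reflect counting error alone, because reads without molecular identifiers are not independent molecules. With 1 library per group no p-value was computed.

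Genes were 20098 protein-coding and 18592 lncRNA genes of GENCODE 44 lifted to GRCh37, with 193738 TSSs, and 0 peaks lay beyond a chromosome end. Exact repeats were counted as 100-base stretches found elsewhere in the assembly, on either strand. Scripts used python 3.11.15, pandas 2.3.3, pysam 0.24.0 and numba 0.67.0, and were tested on simulated data. The 10 genes and the chaperone lists were chosen with earlier results of these data known. Named genes were the 10 genes, their neighbours with a start within 1000 bp or the same strongest peak, the 2 highest further genes of each family and those without a promoter peak, of which at most 6 are named. Of 45 HSP40 genes listed, 44 matched the annotation. Alternatives were peaks with −log10 q or fold enrichment of at least 5, windows of 500 bp or of 5000 bp upstream, the summit in the window, the outermost TSS, merging within 100 bp, wider motif windows and 50-base stretches. The canonical TSS, the element with 1 mismatch and the ZNF143/THAP11 element were added after the data were seen. Motifs were sought on both strands. Protein sequences were not used here.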

Additional observations from a re-analysis of the deposited data

How the results depend on the processing

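No paired analysis was possible because ChIP and input were 1 library each. All 10 genes had a promoter peak under each alternative except the outermost TSS alone, where DNAJB1 had none and 9 remained. Of 39 alternatives for counts and medians over the 10 genes, 30 stayed within the limits set and 9 moved. The number of peaks of the 10 genes fell from 54 to 21 with a fold enrichment of at least 5. Over the whole strongest promoter peak, in place of 50 bp around the summit, the heat shock element was found in 4 genes, the CCAAT box in 9, the CHR element in 6, the ETS core in 2, the GC box in 8 and the TATA box in 6. Within 100 bp the heat shock element was found in 1 and the TATA box in 4. Wider windows hold more sequence, so more matches are built in.

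Of 69 alternatives for the fold enrichment of single genes, 66 did not move it. The 3 that did were HSP90AA1 at its outermost TSS (5.50) and, added after the data were seen, HSPD1 (12.0) and DNAJB1 (8.09) at the canonical TSS. With 50-base stretches the repeated share was 75.0% for HSPA1A and 71.6% for HSPA1B, and 0.983% to 9.84% for the others. The median peak of the list held 20 fragments at its summit, and counting error at that depth is wide, so the order of the weaker peaks is not resolved.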
